A study of Mus musculus with 48 samples.

Results

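Adrenergic receptors were described by 12 probes of 8 genes (Adra1a, Adra1b, Adra1d, Adra2a, Adra2b, Adra2c, Adrb1 and Adrb3) among the 55681 probes of a one-colour mouse array. Every probe that carries one of these gene names on the array was taken, whatever its signal. The family was chosen by a measured value, the fall of Adra2b with stress in the cortex, so the effect of stress in the cortex is given below as a description only. The arrays hold RNA of the medial prefrontal cortex (mPFC) and of whole blood from the same 24 female C57BL/6J mice, 17 weeks old. Control mice (n = 6) had a sham operation and no stress, CUMS mice (n = 6) a sham operation and chronic ultra-mild stress, OVX mice (n = 6) an ovariectomy and no stress, and OVX+CUMS mice (n = 6) both. All mice, controls included, had surgery and were anaesthetized with pentobarbital before their tissues were taken. The blood RNA comes from the pelleted cells of heparinized blood, and the mPFC RNA from pieces dissected out of coronal slices. OVX mice are used as a model of menopause and OVX+CUMS mice as a tool to find blood markers of depression. Each array is a separate mouse, so the spread given is between mice.

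Noradrenaline from the locus coeruleus and adrenaline from the adrenal medulla act through G protein-coupled receptors of 3 classes. The alpha-1 receptors (Adra1a, Adra1b, Adra1d) couple to Gq and phospholipase C, the alpha-2 receptors (Adra2a, Adra2b, Adra2c) couple to Gi and lower cyclic AMP, and the beta receptors couple to Gs and raise it. In the prefrontal cortex the alpha-2A receptor is known for strengthening working memory by closing HCN channels, and alpha-1 receptors for weakening it during stress.

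The arrays of each tissue lay on 3 slides of 8, and each slide was scanned at 1 time. The 6 control mice were all on slide 1, next to CUMS replicates 1 and 2. The other 4 CUMS mice shared slide 2 with OVX replicates 1 to 4, and the last 2 OVX mice shared slide 3 with the 6 OVX+CUMS mice. The layout was the same in both tissues. Group and slide can therefore be told apart only in part. Many results, though not all, are also given with slide as a block. The 75th percentile of the intensity, to which every value is relative, was 572 to 689 on the mPFC arrays and 54.9 to 192 on the blood arrays, in arbitrary units. CUMS replicate 2 had the dimmest blood array. In OVX+CUMS replicate 5 the blood level of the neutrophil marker list was 11.74 on the log2 scale, against 8.37 to 8.99 in the other 5 mice of the group. All 6 neuronal markers were well above background in mPFC, with a summed level of 8.53 to 8.84 on every array, and all 6 erythroid markers in blood.

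The sequences of 4 probes are shown first because the results in blood turn on them: the pair of Adra1b probes that went opposite ways in blood, the Adrb1 probe seen in blood, and the Adrb3 probe seen in the blood of some mice. Each probe has 60 bases, printed 5′ to 3′ in the sense of the mRNA as the array files give them. The first 2 are stretches of 30 bases, in which capitals mark runs of at least 3 CT or 3 AC. The last 2 are whole probes without capitals and lie in coding sequence, that of Adrb1 over the part for the third transmembrane helix and that of Adrb3 over the seventh.
Adra1b A_55_P2177721, bases 16 to 45: acttaagtCTCTCTCTCTtCTCTCTCTgta
Adra1b A_55_P2100290, bases 7 to 36: gtACACACACACaagcACACACACaatgta
Adrb1 A_51_P203827: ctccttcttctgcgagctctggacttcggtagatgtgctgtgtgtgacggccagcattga
Adrb3 A_55_P2105685: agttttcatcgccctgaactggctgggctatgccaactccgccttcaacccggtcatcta
By the array's annotation (mm9), the Adra1b probes lie at chr11:43589067-43589126 and chr11:43588147-43588206 on the minus strand, the Adrb1 probe at chr19:56797242-56797301 on the plus strand and the Adrb3 probe at chr8:28337864-28337923 on the minus strand. The Adra1b probes carry simple repeats in the stretches shown, and binding of repeats from other transcripts was not tested.

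A probe was called detected in a tissue when the scanning software marked it as significant and well above background on all 24 arrays, with an intensity over 50 on at least 2. In mPFC 12 of 12 member probes were detected, against 50.9% of all probes. In blood 4 member probes of 3 genes were detected, against 37.3% of all probes, namely both probes of Adra1b, that of Adra2b and 1 of the 2 of Adrb1. Among the other 8, Adra1a, Adra2a, Adra1d (A_55_P2019954), Adrb1 (A_52_P322181) and Adrb3 (A_55_P1992849) were not well above background on any blood array. The remaining 3 were well above background on part of the 24 arrays, Adra1d (A_55_P1961809) on 12, Adra2c on 10 and Adrb3 (A_55_P2105685) on 18.

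In mPFC the signal of Adra2b, the alpha-2B receptor, had a high level on slide 1 and a low level on slides 2 and 3. Control mice were on slide 1 alone, and no OVX or OVX+CUMS mouse was on it. Only CUMS mice thus lay on both sides of this step. Values here and below are log2 intensity minus log2 of the 75th percentile of the array (log2 signal). Control mice had -0.37, -0.26, -0.31, -0.28, 0.03 and -0.28. The 2 CUMS mice on slide 1 had -0.26 and -0.31, within the control range, whereas the 4 CUMS mice on slide 2 had -1.60, -1.70, -1.81 and -1.72. OVX mice had -1.61, -1.63, -1.71 and -1.50 on slide 2 and -1.89 and -1.98 on slide 3. OVX+CUMS mice, all on slide 3, lay between -2.07 and -1.64 with a median of -1.88. The 8 arrays of slide 1 thus lay above all 16 arrays of slides 2 and 3, and the CUMS group was the only one to hold both levels. Control mice averaged -0.24 ± 0.14 (SD, n = 6), CUMS mice -1.23 ± 0.74, OVX mice -1.72 ± 0.18 and OVX+CUMS mice -1.87 ± 0.17, with mean intensities of 550, 296, 187 and 166.

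**Figure D1:**
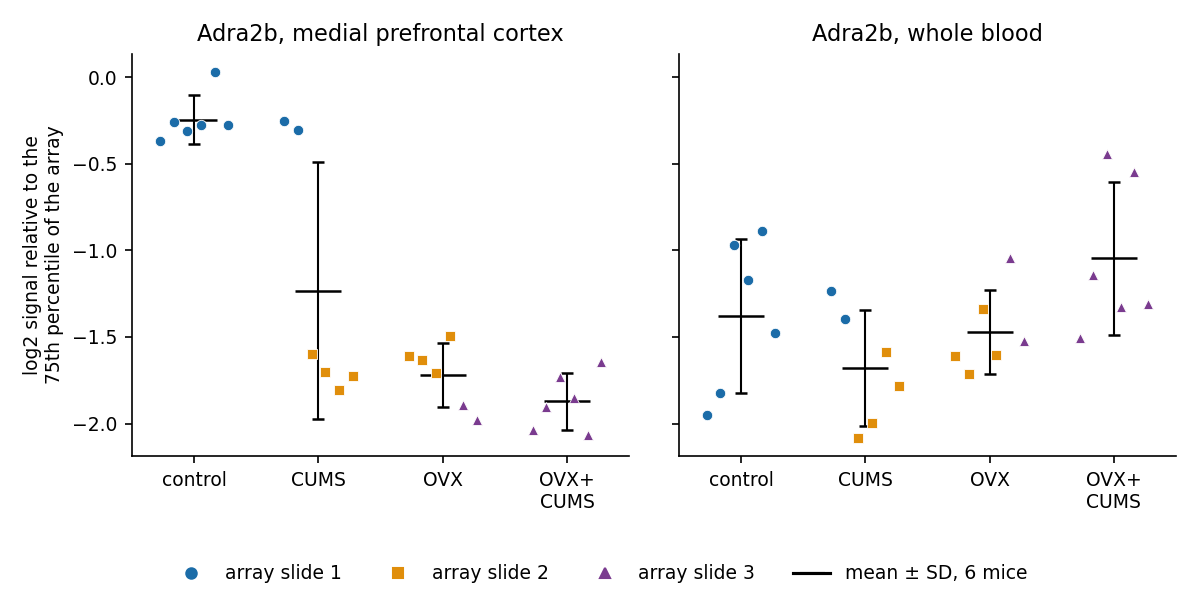
Adra2b in mPFC (left) and whole blood (right), as log2 signal relative to the 75th percentile of the array (vertical axis) in the 4 groups (horizontal axis). Each symbol is 1 mouse, its shape and colour give the array slide, and bars are mean ± SD of 6 mice; in mPFC the 2 CUMS mice on slide 1 lie with the control mice and the 4 on slide 2 with the OVX mice.

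Tested over all 24 mPFC arrays, Adra2b was lower by OVX, with a log2 change of -1.06 (standard error 0.15, adjusted p = 6.3e-05 from limma). OVX and control mice did not overlap, a pattern found in 21% of the detected probes, and the exact permutation test (two-sided) gave p = 0.00216, unadjusted and the smallest that 6 against 6 mice allow. The control arrays also enter the stress contrast that chose the family, and no OVX mouse shared a slide with them. The OVX difference of Adra2b in mPFC is therefore a description only. The OVX effect was called for 1 of the 12 member probes, against 30.9% of all detected probes. The call was lost with slide as a block, where the OVX change of Adra2b was 0.11 (standard error 0.11, adjusted p = 0.908 from limma) with a 95% interval of -0.13 to 0.35. No probe at all was called for OVX in that fit, with 1880 at an unadjusted p under 0.05. Within slide 2, the only slide that holds mice with and without ovariectomy, though these also differ in stress, CUMS mice differed from OVX mice by -0.09 (standard error 0.06, adjusted p = 0.480 from limma). Only 0.0423% of the detected probes were called in that comparison.

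The CUMS effect, which chose this family, was called in 4.19% of the detected probes. Among the members other than Adra2b it was called for Adrb1 (A_52_P322181) alone. The Adra2b value chose the family, so its CUMS effect is a description only and no call is read from it. That effect was -0.57 (standard error 0.15), and 0.02 with slide as a block. On slide 1 the 2 CUMS mice differed from the 6 control mice by -0.04, and on slide 3 the 6 OVX+CUMS mice from the 2 OVX mice by 0.07. The interaction is how far the stress effect in ovariectomized animals exceeds that in sham-operated ones. For Adra2b it was 0.84 (standard error 0.31, adjusted p = 0.108 from limma), and 0.10 with slide as a block. Without the block it was called in 0 of the 12 member probes and in 4.49% of all detected probes. It was past the threshold without CUMS replicate 1 (1.03) or CUMS replicate 2 (1.02), the CUMS arrays on slide 1, and was 1.31 without both, an alternative chosen after seeing the data. The interaction holds the stress contrast that chose the family, and these arrays were singled out by their Adra2b values, so the changes are descriptions only.

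The step between slides was then compared among mice of 1 condition. CUMS mice on slide 2 differed from CUMS mice on slide 1 by -1.43 in Adra2b. These values are part of the stress contrast that chose the family, so the Adra2b step is a description only. Over the 28358 detected probes, a step of either sign was called in 16.2%, and 91 probes, Adra2b included, had one as low or lower. Among the other members only Adra2c had a called step, of 0.28 (adjusted p = 0.0314 from limma). OVX mice on slide 3 differed from OVX mice on slide 2 by -0.32 in Adra2b (adjusted p = 0.174 from limma), a comparison with 0.427% of the probes called. The median step from slide 1 to slide 2 over all detected probes was 0.06. Whether the step comes from the slides, from their scans or from the order in which mice were processed was not tested.

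Genes like Adra2b in mPFC were sought by Pearson's r over 24 arrays among 21496 detected probes with a gene name, each gene by its closest probe. Other members were compared in the same way by their brightest detected probe. The genes closest to Adra2b were Siglece (0.981), Gm10427 (0.978) and Erp27 (0.977). Having been picked for this likeness, they too were higher on slide 1, by smaller steps than Adra2b. Siglece, a sialic acid-binding receptor of myeloid cells, averaged 2.28 ± 0.05 (SD, n = 8 arrays) on slide 1, 1.45 ± 0.05 on slide 2 and 1.41 ± 0.07 on slide 3. Erp27, a protein of the endoplasmic reticulum, averaged 1.13 ± 0.08, 0.39 ± 0.06 and 0.37 ± 0.08 on the same slides. These values describe slides that hold different groups. The 6 B cell markers, of which 2 were detected in mPFC, had a summed level of -1.51 to 0.20 on slide 1, -2.003 to -0.73 on slide 2 and -2.08 to -1.65 on slide 3. The 2 detected ones were called in opposite directions for OVX, 1 higher and 1 lower, and 0 with slide as a block. The part of B cells in the Adra2b values was not tested. Neuronal markers were at the same level on all slides, between 8.53 and 8.84.

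Adra2a and Adra2c, the other alpha-2 receptors, showed no called OVX or interaction effect in mPFC. Adra2a, the main presynaptic and postsynaptic alpha-2 receptor of the cortex, had -0.22 to 1.63 over the 24 arrays. Control mice averaged 0.74 ± 0.45 (SD, n = 6), CUMS mice 0.82 ± 0.40, OVX mice 1.28 ± 0.38 and OVX+CUMS mice 0.68 ± 0.54. OVX mice held the highest mean, with 5 of 6 mice above every control mouse, and the other 3 groups lay within 1 SD of each other. The OVX effect of Adra2a was 0.20 (95% interval -0.16 to 0.56, adjusted p = 0.409 from limma) and its interaction -0.68 (standard error 0.34, adjusted p = 0.236 from limma). With slide as a block that interaction was 0.004. Nfib, a transcription factor of cortical development, was the gene most like Adra2a over the 24 arrays (r = 0.938), followed by Lmo3 (0.908). Adra2c, a further brake on noradrenaline release, was steady at 2.72 to 3.24, with an OVX effect of 0.02 (95% interval -0.09 to 0.14). Its nearest genes were Ak4 (r = 0.921), Zfp467 (0.893) and Cep350 (0.862).

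None of the alpha-1 receptor probes had a called OVX or interaction effect in mPFC. Adra1b, the receptor of many pyramidal neurons, was measured by A_55_P2177721 at 2.64 ± 0.22 (SD, n = 6), 2.67 ± 0.17, 2.55 ± 0.14 and 2.73 ± 0.13 in control, CUMS, OVX and OVX+CUMS mice. Its second probe, A_55_P2100290, had -0.94 ± 0.16, -1.01 ± 0.27, -1.16 ± 0.22 and -0.82 ± 0.38 in the same order. The OVX effects of the pair were -0.01 (95% interval -0.15 to 0.13) and -0.01 (95% interval -0.23 to 0.20). Adra1d had -0.01 ± 0.28, 0.21 ± 0.12, 0.01 ± 0.15 and 0.25 ± 0.18 by A_55_P2019954, and OVX effects of 0.03 and, by A_55_P1961809, 0.09. Slc30a3, the zinc transporter of glutamatergic vesicles (r = 0.841), Cdh12 and Camkk2 (both 0.839) were closest to Adra1d over the 24 arrays. Adra1a was dim in mPFC, with mean intensities of 56.6 to 67.5, and had an OVX effect of 0.04 (95% interval -0.11 to 0.19).

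Of the beta receptors, Adrb1 is the main one of the forebrain and Adrb3 is best known from fat. By A_52_P322181, Adrb1 was at 1.67 ± 0.15 (SD, n = 6) in control, 1.81 ± 0.08 in CUMS, 1.62 ± 0.17 in OVX and 1.89 ± 0.16 in OVX+CUMS mice, with a CUMS difference of 0.21. By A_51_P203827 the means were -1.83 ± 0.10, -1.48 ± 0.18, -1.54 ± 0.30 and -1.55 ± 0.26, with a CUMS difference of 0.17. Both Adrb1 probes thus had higher means in the stressed mice of the sham-operated pair, and the groups overlapped in both. The OVX effects were 0.02 and 0.11, with 95% intervals of -0.10 to 0.14 and -0.07 to 0.29. Cux2, a marker of upper-layer neurons, was the gene most like Adrb1 by A_52_P322181 (r = 0.894 over 24 arrays), and Cpne4 was also among the closest (0.867). Adrb3 stayed between -0.86 and 0.21 by A_55_P1992849 and between -3.07 and -2.23 by A_55_P2105685, with OVX effects of 0.07 and 0.03. Arpp21 (0.840) and Npy1r (0.837) led its list of similar genes. For mPFC as a whole, the OVX effects of the 11 probes other than Adra2b lay between -0.01 and 0.20, and none passed the threshold of 0.05. The rule for change in OVX+CUMS mice alone, an F test over the groups followed by Tukey's comparison with control mice, picked 0 member probes and 3.87% of all detected probes in mPFC.

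**Figure D2:**
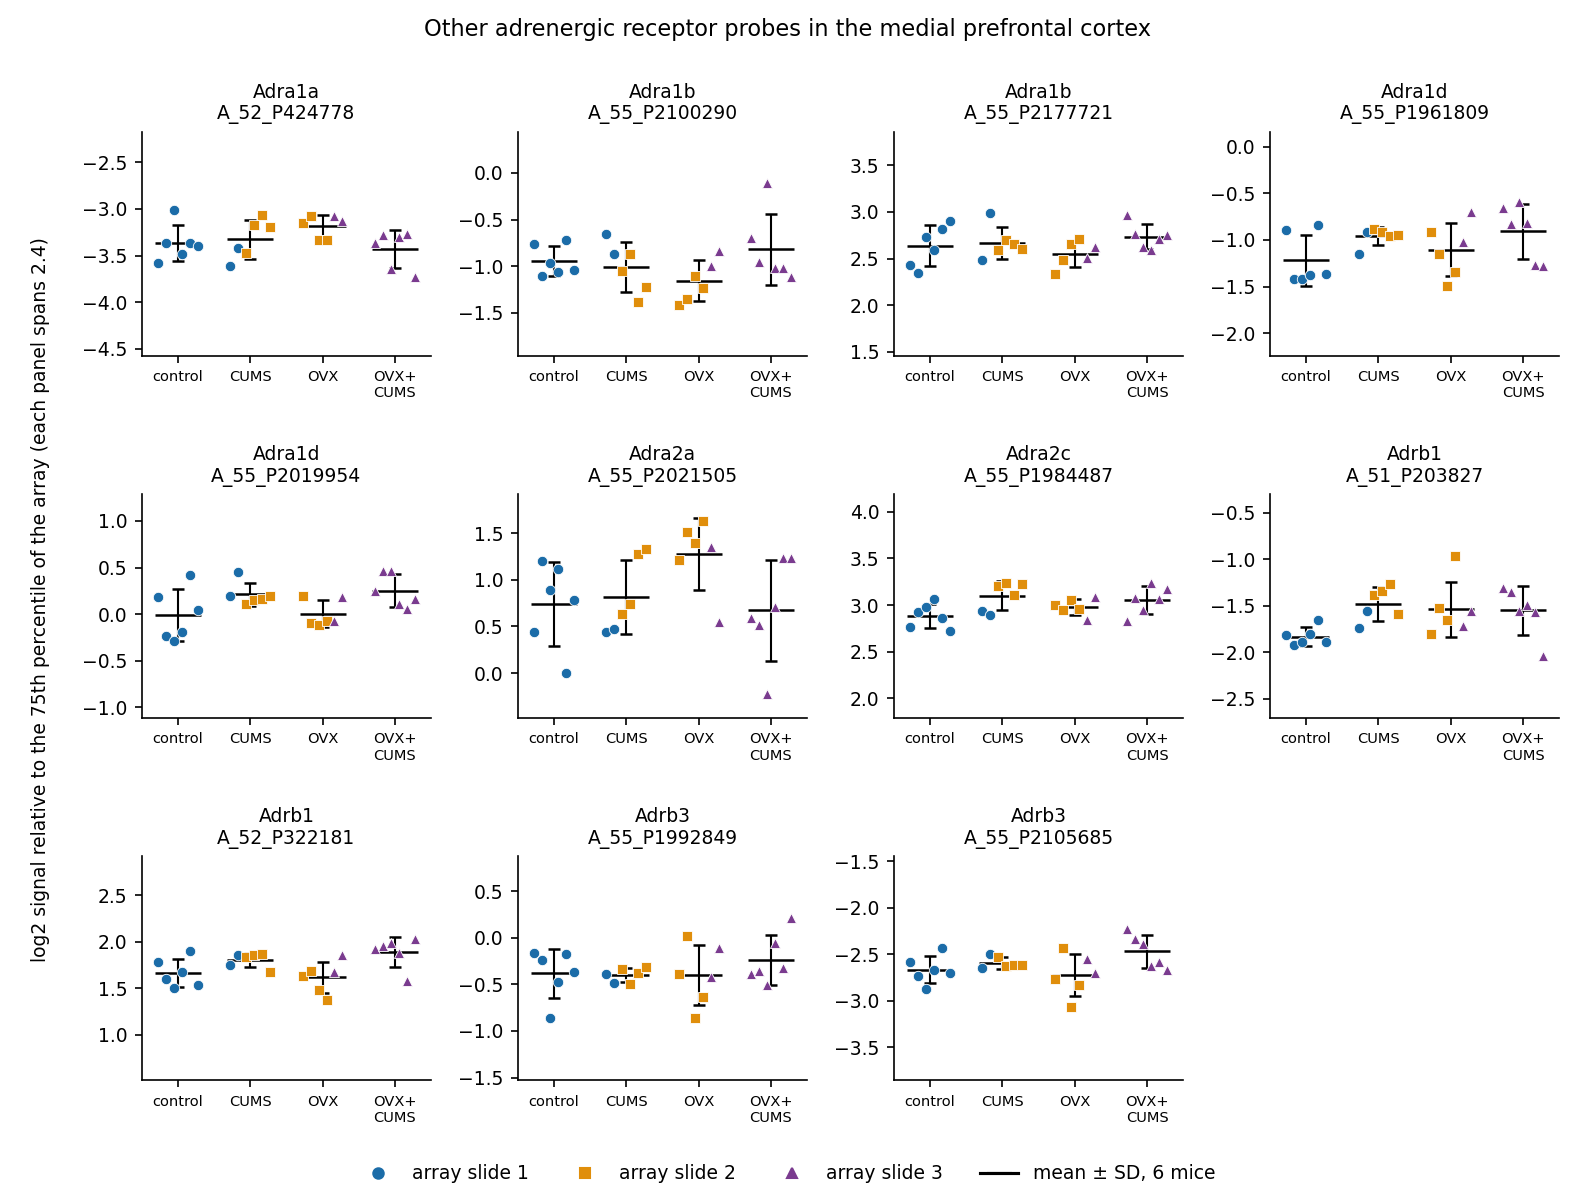
The 11 other adrenergic receptor probes in mPFC, 1 panel per probe, as log2 signal relative to the 75th percentile of the array (vertical axis, 2.4 in every panel) in the 4 groups (horizontal axis). Symbols are single mice with shape and colour by array slide and bars are mean ± SD of 6 mice; in every panel the groups overlap.

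In blood, the alpha-1B receptor gave opposite readings by its 2 probes. By A_55_P2177721, Adra1b had 4.44, 5.69, 4.27, 4.21, 4.09 and 4.74 in control mice and 5.01, 5.79, 4.55, 4.52, 5.51 and 4.73 in CUMS mice. OVX mice had 3.37, 3.41, 3.68, 3.83, 3.19 and 3.60, all below every control and every CUMS mouse. OVX+CUMS mice had 4.16, 3.85, 3.52, 4.22, 3.80 and 4.67, between these levels and overlapping both the OVX and the control mice. The means were 4.57 ± 0.59 (SD, n = 6), 5.02 ± 0.53, 3.51 ± 0.23 and 4.03 ± 0.40. By this probe Adra1b fell by 1.02 with OVX on the log2 scale (standard error 0.18, adjusted p = 0.000198 from limma). OVX and control mice did not overlap, as in 19.8% of the probes detected in blood, and the exact permutation test (two-sided) gave p = 0.00216, unadjusted among 48 such tests and the smallest possible for 6 against 6 mice. No OVX mouse shared a slide with a control mouse, so this pair cannot be told apart from the slides. OVX was called in 3 of the 4 detected member probes in blood, against 55.1% of all detected probes, so the family stood near the background of this tissue.

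By A_55_P2100290, which lies further along the same transcript, Adra1b had -0.71 to 0.40 (median -0.31) in control mice and -1.48 to -0.17 (median -0.86) in CUMS mice. It had -0.74 to 0.72 (median -0.17) in OVX mice and -0.32 to 0.81 (median 0.20) in OVX+CUMS mice. Here the CUMS mice were lowest, all groups overlapped their neighbours, and the OVX effect was 0.64 (standard error 0.19, adjusted p = 0.00703 from limma), opposite in sign to that of the other probe. With slide as a block neither OVX effect was called. The block left -0.53 (95% interval -1.33 to 0.28, adjusted p = 0.847 from limma) for A_55_P2177721 and 0.85 (95% interval 0.04 to 1.66, adjusted p = 0.766 from limma) for A_55_P2100290. No probe in blood was called for OVX in that fit, with 1317 at an unadjusted p under 0.05. Within slide 2, where CUMS and OVX arrays were hybridized together, CUMS mice were higher than OVX mice by 1.26 (standard error 0.23, adjusted p = 0.00693 from limma) for A_55_P2177721 and differed from them by -0.92 (standard error 0.22, adjusted p = 0.0116 from limma) for A_55_P2100290. That contrast, in which both factors differ, was called in 52.2% of the probes detected in blood.

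CUMS was called in blood for 1 of the 4 detected member probes, against 48.5% of all detected probes. Adra1b rose with CUMS by 0.48 (standard error 0.18, adjusted p = 0.0285 from limma) by A_55_P2177721, and by 0.73 (standard error 0.25, adjusted p = 0.0216 from limma) with slide as a block, a fit that called 49.7% of the probes. The call was lost without CUMS replicate 2 (0.41), control replicate 5 (0.43), CUMS replicate 5 (0.43) or OVX+CUMS replicate 6 (0.42), with a shift by the spike-in probes (0.30), and without the detection filter (0.48, adjusted p = 0.0697 from limma). Within slides the difference was 0.82 on slide 1 (adjusted p = 0.165 from limma) and 0.64 on slide 3 (adjusted p = 0.129 from limma), with 0 probes called on either slide and 6391 and 7625 at an unadjusted p under 0.05. By A_55_P2100290 the CUMS effect was -0.17 (standard error 0.19, adjusted p = 0.460 from limma).

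Markers of red blood cell precursors moved the same way as A_55_P2177721. Of 6 erythroid markers, all detected, OVX lowered 5 and CUMS raised 5, where 55.1% and 48.5% of all probes were called. Under the slide block OVX was called for 0 of the 6 and CUMS for 6. Alas2, the first enzyme of haem synthesis in these cells, had -0.57 for OVX and 0.30 for CUMS, and Slc4a1, the anion exchanger of the red cell membrane, -0.49 and 0.71. The summed level of the list ranged over 13.43 to 14.16 in control, 13.72 to 14.66 in CUMS, 12.90 to 13.55 in OVX and 13.25 to 13.68 in OVX+CUMS mice. B cell markers moved oppositely, with 4 of 6 higher by OVX and 5 of 6 lower by CUMS, and with slide as a block 0 and 5. Of 6 platelet markers OVX lowered 2, and 0 with the block. The part of these cell types in the Adra1b values was not tested, and in bulk blood fewer cells of a type and less RNA per cell cannot be told apart. The OVX effect of A_55_P2177721 was -0.997 without OVX+CUMS replicate 5, the mouse with the high neutrophil level, and -0.94 without CUMS replicate 2. That of A_55_P2100290 was 0.60 and 0.72.

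**Figure D3:**
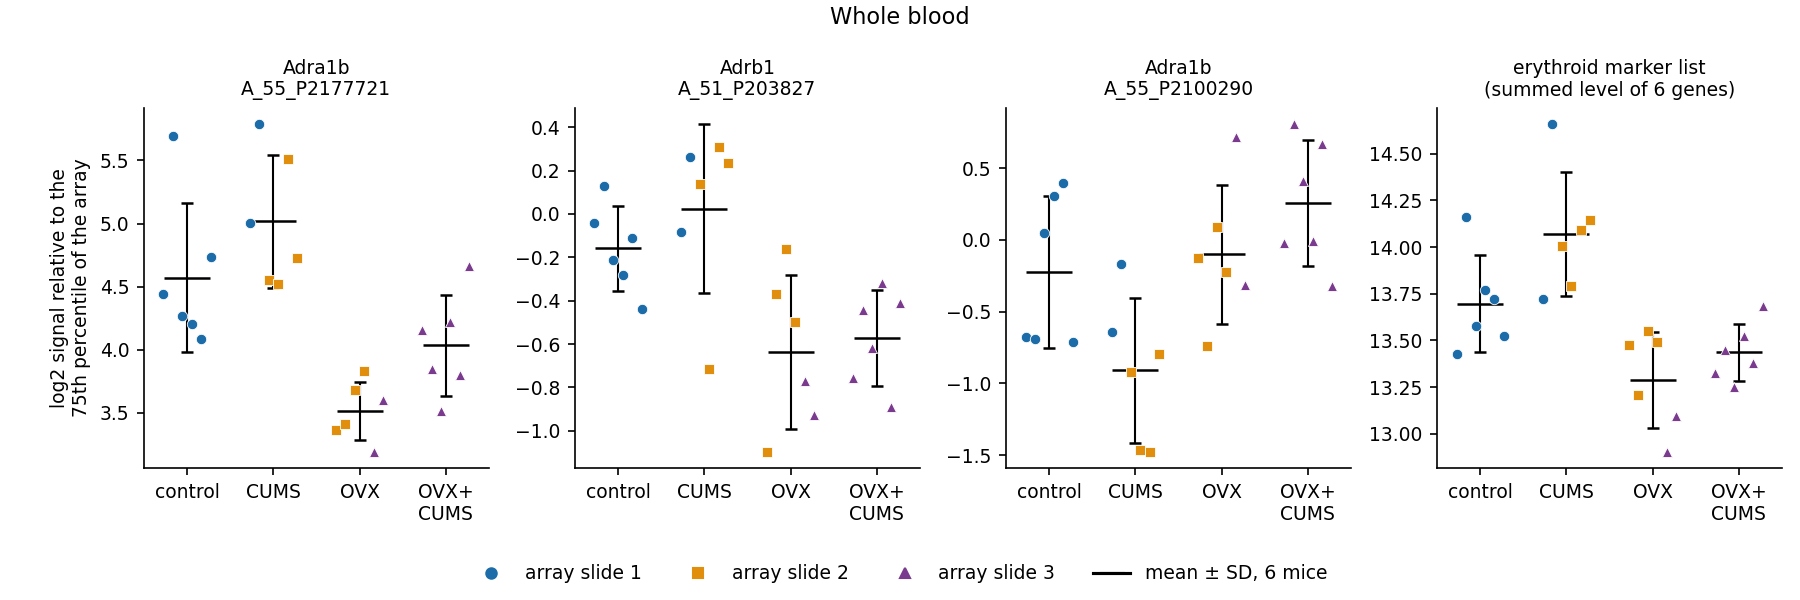
Adra1b by its 2 probes, Adrb1 by A_51_P203827 and the summed level of 6 erythroid markers in whole blood, as log2 signal relative to the 75th percentile of the array (vertical axes) in the 4 groups (horizontal axes). Symbols are single mice with shape and colour by array slide and bars are mean ± SD of 6 mice; A_55_P2177721 and the erythroid list are lowest in OVX mice, and A_55_P2100290 is lowest in CUMS mice.

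Adrb1, the receptor by which catecholamines speed the heart, had -0.04, 0.13, -0.21, -0.28, -0.11 and -0.44 in the blood of control mice by A_51_P203827. CUMS mice had -0.08, 0.26, 0.14, -0.72, 0.31 and 0.23. OVX mice had -1.10, -0.37, -0.16, -0.50, -0.77 and -0.93, and OVX+CUMS mice -0.76, -0.44, -0.62, -0.32, -0.89 and -0.41. The ovariectomized mice lay lower, yet both of their groups overlapped the control mice. By this probe alone, Adrb1 fell by 0.54 with OVX (standard error 0.12, adjusted p = 0.00119 from limma). The other Adrb1 probe, A_52_P322181, was not well above background on any blood array and gives no second reading. With slide as a block the change was -0.26 (95% interval -0.82 to 0.30, adjusted p = 0.899 from limma), and with arrays shifted by their spike-in probes instead of the 75th percentile -0.19 (adjusted p = 0.316 from limma). That shift moved the median OVX effect of all probes detected in blood from 0.04 to 0.39. Within slide 2, CUMS mice exceeded OVX mice by 0.52 (adjusted p = 0.115 from limma). With any single array left out the OVX change of Adrb1 lay between -0.61 and -0.49.

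Adra2b in blood had -1.95 to -0.89 (median -1.33) in control mice and -2.08 to -1.23 (median -1.68) in CUMS mice. It had -1.71 to -1.05 (median -1.56) in OVX mice and -1.51 to -0.44 (median -1.23) in OVX+CUMS mice. All groups overlapped, and the step between slides 1 and 2 within the CUMS mice was -0.55 (adjusted p = 0.483 from limma), a comparison with 0.0433% of the probes called. The step between slides 2 and 3 within OVX mice was 0.28 (adjusted p = 0.346 from limma), with 6.03% called. OVX changed Adra2b in blood by 0.27 (95% interval -0.03 to 0.57, adjusted p = 0.118 from limma). The interaction was 0.72 (standard error 0.29, adjusted p = 0.189 from limma), and 0.17 with slide as a block. Without the block it was called for 0 of the 4 members and for 1.42% of all probes in blood. For A_55_P2100290 of Adra1b it was 1.04 (standard error 0.38, adjusted p = 0.134 from limma), and it passed without CUMS replicate 2 (1.19). With slide as a block it was 0.24 for that probe. The rule for change in OVX+CUMS mice alone picked 0 of the 4 and 2.67% of all probes.

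Adrb3 (A_55_P2105685), not detected by the rule, was well above background in the blood of 2 control, 5 CUMS, 5 OVX and 6 OVX+CUMS mice. Control mice had -4.47 to -2.17 (median -2.84) and OVX+CUMS mice -2.48 to -1.46 (median -1.69). The groups overlapped, at intensities of 5.45 to 49.5 in blood, and the exact permutation test (two-sided) for this pair gave p = 0.00433, unadjusted, among 48 such tests of member probes. Control mice were all on slide 1 and OVX+CUMS mice all on slide 3, so this pair cannot be told apart from the slides. Within a group the probe also differed by slide. CUMS mice averaged -3.15 on slide 1 and -1.80 on slide 2, and OVX mice -2.95 on slide 2 and -2.10 on slide 3. With a looser filter, well above background on at least 6 of 24 arrays, its fitted CUMS effect was 0.82. It passed that filter mainly through the 3 groups other than control, so no call is read from it. The second Adrb3 probe, A_55_P1992849, was not well above background on any blood array.

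**Figure D4:**
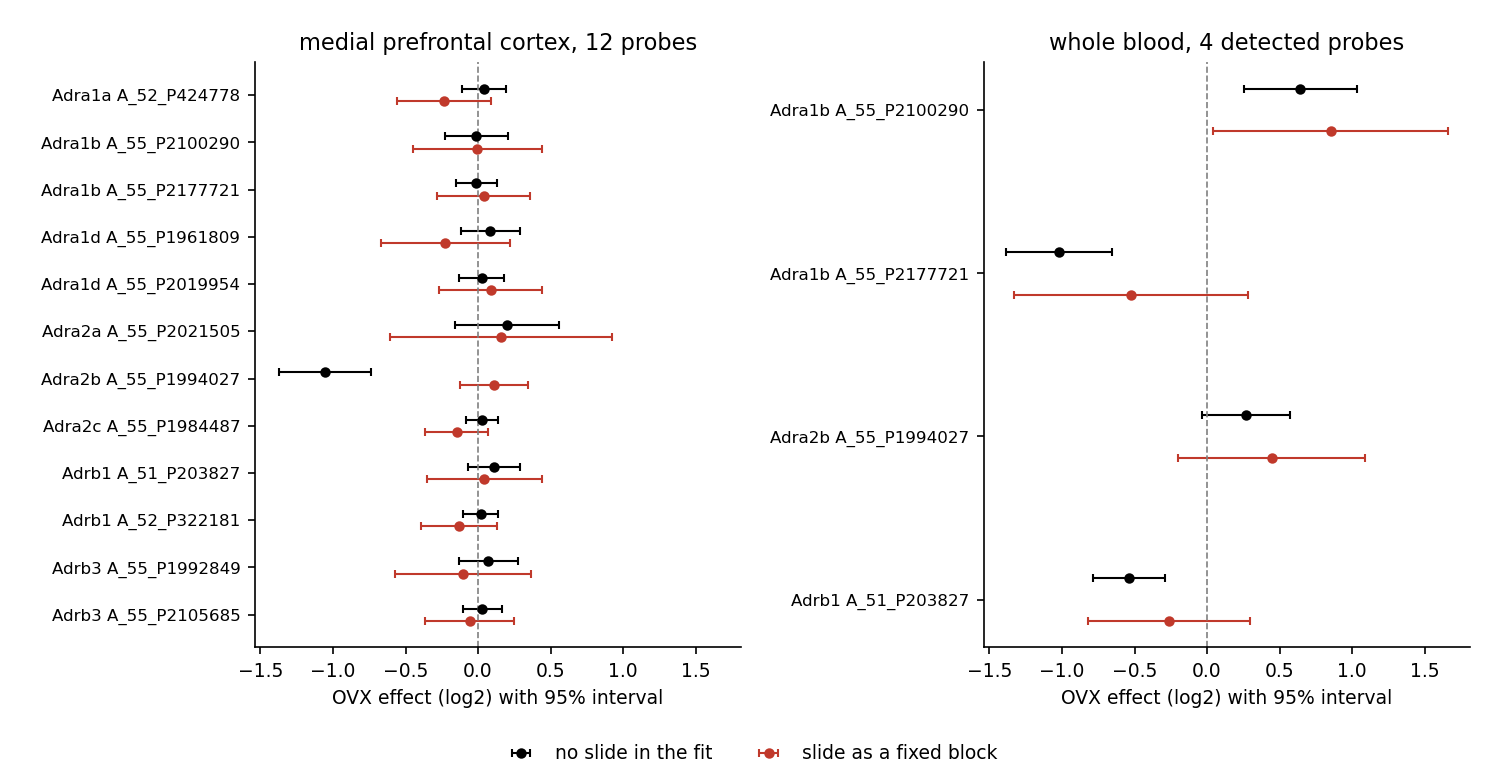
OVX effect on the log2 scale (horizontal axis) with its 95% interval for each member probe (vertical axis) in mPFC and whole blood, fitted without slide (black) and with slide as a fixed block (red). In mPFC only the Adra2b interval lies away from 0 without the block, and it spans 0 with the block; in blood the block widens all 4 intervals.

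Blood and mPFC were compared within each mouse, probe by probe, since levels of different probes cannot be ranked on an array. For Adrb1, A_51_P203827 was higher in blood than in mPFC by 1.26 relative to the 75th percentile of the tissue (standard error 0.07, adjusted p = 3.49e-21 from limma with mouse as a random block). A_52_P322181 of the same transcript went the other way, with mPFC at least 36.5-fold above blood, where the probe was not well above background. Adra1b was higher in blood by 1.64 by A_55_P2177721 and by 0.74 by A_55_P2100290. Adra2b differed by -0.13 (standard error 0.10, adjusted p = 0.229 from limma). Such a difference was called for 3 of the 4 member probes and 96.5% of the 17544 probes detected in both tissues. The blood arrays were dimmer throughout, and after a shift by the spike-in probes the differences were -0.53, -0.16, -1.06 and -1.92 for A_51_P203827, A_55_P2177721, A_55_P2100290 and Adra2b, so the direction of the first 3 depends on the scale.

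For the 5 probes not well above background on any blood array, bounds were set against the dimmest probe well above background on each blood array. Relative to the 75th percentile, Adra2a was at least 20-fold higher in mPFC than in blood, Adra1d (A_55_P2019954) at least 11.8-fold, Adrb3 (A_55_P1992849) at least 8.52-fold and Adra1a at least 1.09-fold. These bounds hold for single probes: the second Adra1d probe and the second Adrb3 probe were well above background on part of the blood arrays, and by A_55_P2105685 Adrb3 differed by 0.17 (blood less mPFC, adjusted p = 0.219 from limma with the looser filter). The OVX effect differed between tissues in 4 of the 4 probes, against 39.3% of all probes. In blood less mPFC it was 1.33 for Adra2b (adjusted p = 9.45e-06 from limma), -1.01 for A_55_P2177721 (adjusted p = 8.64e-05), 0.66 for A_55_P2100290 (adjusted p = 0.0135) and -0.65 for Adrb1 (adjusted p = 0.000689). With normexp background correction the A_55_P2100290 difference was 0.30 (adjusted p = 0.0815 from limma) and no longer called. The comparison of tissues had no slide term, and the Adra2b value holds the slide step of mPFC described above. The CUMS effect differed in 1 of the 4, Adra2b (0.63), against 51.4% of all probes; it holds the mPFC stress contrast and is given as a description.

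Whether blood follows brain within a mouse was examined in the deviations from the group means of 24 mice, for the 4 probes detected in both tissues (100000 permutations within groups, two-sided). Arrays were again paired by group and replicate number. Adra2b had r = 0.352 (permutation p = 0.0836, adjusted 0.335) and rho = 0.232 (permutation p = 0.274). Without the 2 mice farthest from the mPFC median its r was 0.174. Adra1b had r = 0.295 (permutation p = 0.178) by A_55_P2100290 and 0.078 (permutation p = 0.768) by A_55_P2177721, and Adrb1 had 0.041 (permutation p = 0.870). None of the 4 passed after adjustment.

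Downstream of the receptors, 65 genes of the pathway were followed by 1 probe each. In mPFC 56 were detected, of which OVX raised 16 and lowered 3, 33.9% against 30.9% of all probes. Of the 10 genes of receptor desensitization 5 rose, among them Arrb2, beta-arrestin 2 (0.17, standard error 0.05), and Adrbk2, a receptor kinase (0.15, standard error 0.06). Of 9 adenylyl cyclases 3 rose, led by Adcy6 (0.23, standard error 0.05, adjusted p = 0.000578 from limma) and Adcy9 (0.20). Of 8 G alpha subunits 3 rose, led by Gnaz (0.19) and Gnai3 (0.18), both of the Gi family. Among 8 protein kinase A genes 3 rose, led by Prkar1b (0.12) and Prkacb (0.11). Of 8 phosphodiesterases 2 rose and 1 fell, with Pde4a at 0.17 and Pde4c at -0.42. Hcn2, a pacemaker channel that cyclic AMP opens, fell as well (-0.33, adjusted p = 0.000593 from limma). None of the 7 catecholamine genes or 3 phospholipase C beta genes was called. With slide as a block none of the 56 was called. The medians of these lists, channels left aside, lay between -0.01 for phospholipase C beta and 0.11 for desensitization, beside 0.04 for all detected probes. Microglial markers moved with these genes, 5 of 6 being higher by OVX and 0 of 6 called with slide as a block, and their part was not tested.

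The interaction in mPFC was called for 3.57% of the 56 genes, against 4.49% of all detected probes. Adcy6 was among them (-0.32, adjusted p = 0.0449 from limma). With slide as a block its interaction was -0.03, and none of the 56 was called. The CUMS effect in mPFC was called for 2 of the 56, Adcy7 (0.25) and Prkar1b (0.12), 3.57% against the 4.19% of all probes. In blood 37 of the 65 were detected, and OVX raised 11 and lowered 10, 56.8% against 55.1% of all probes. Under the slide block none of the 37 was called for OVX, Th being at -0.43 and Prkaca at 0.01. Without the block, among catecholamine genes OVX lowered Th, the rate-limiting enzyme of catecholamine synthesis (-0.99, standard error 0.23, adjusted p = 0.00171 from limma), and Pnmt, which makes adrenaline (-0.71). It lowered Rgs7, a regulator of Gi signalling (-1.07), and raised Adrbk1, a receptor kinase (0.45). Other falls were those of Prkaca (-0.97), Gna14 (-0.71), Hcn2 (-0.67), Plcb2 (-0.64) and Gnas, the Gs alpha subunit (-0.45). Other rises were those of Adcy6 (0.63), Adcy4 (0.58), Akap12 (0.51), Pde4c (0.37), Plcb3 (0.34) and Pde4a (0.28). CUMS raised 5 and lowered 9 of the 37, 37.8% against 48.5% of all probes, including Adcy4 (0.78) and Pnmt (0.62) upward and Pde4b (-0.47), Adcy7 (-0.41) and Grk6 (-0.39) downward. The interaction was called for Th (1.97), Rgs7 (1.72) and Pde4c (1.16), 8.11% against 1.42% of all probes. These were 0.14, 0.19 and 0.38 with slide as a block, and none was called.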

How the data were processed

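RNA of mPFC and whole blood from 24 mice was labelled with Cy3 after oligo-dT priming and hybridized by the authors to 48 one-colour Agilent arrays of 62976 spots (3671 controls), scanned and read with Feature Extraction 10.7.3.1. The deposited spot intensities are background-corrected processed signals, and spots with an outlier mark (98 to 206 per array) were left out. The authors' normalized log2 table, shifted to the 75th percentile of each array, matched the values used here within 0.001 up to a constant per array for 100% of 54871 single-spot probes. Its centring is not stated, and its array medians were -3.89 to -2.66. The authors' quality marks for background and saturation were used as deposited, and no member spot was saturated. The number of arrays limits the precision.

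Log2 intensity minus the 75th percentile was computed in R 4.3.3 and fitted per tissue over all detected probes with limma 3.58.1 (surgery, stress and their interaction, Benjamini-Hochberg adjustment, threshold 0.05). Tissues were compared with the mouse as a random block, and single values by exact permutation tests over 924 arrangements. Tested on simulated data with 200 probes changed by 1 (log2), the fit recovered 99% for OVX, 97.5% for CUMS and 81.5% for the interaction in mPFC, and 95.5%, 95% and 53.5% in blood. The simulated arrays had independent noise and no steps between slides, so these rates do not cover the slide layout of the real arrays. Of 28390 RefSeq accessions on the array 26762 were matched to a current gene. All members were named by rule, with up to 3 most similar genes for each and the pathway genes called or led by size. Replicate numbers did not pair mice of different groups: correlations of same-numbered arrays of different groups ran from -0.23 to 0.39 in mPFC and from -0.51 to 0.49 in blood. The members and lists were chosen with earlier results of these data known. Alternatives tried were slide or replicate blocks, background correction, scaling, detection filters, no variance moderation and leaving out arrays. Some probe sequences and genes are not reported here.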

Additional observations from a re-analysis of the deposited data

Results flagged for a closer look

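Of 64 groups of 6 arrays examined with Dixon's test, 7 (10.9%) held 1 array farther from the rest than the 95% critical value of 0.625 allows, where chance gives about 1 group in 20. All 7 were in mPFC. The CUMS and OVX groups span 2 slides and the probes share arrays, so the chance rate is only a rough guide. The CUMS arrays among the 7, replicates 1 and 2, were those on slide 1. The gap divided by the range was 0.746 for Adra1d (A_55_P2019954) in CUMS replicate 2, at 0.45 against 0.20 for the nearest mouse, and 0.743 for Adra1d (A_55_P1961809) in CUMS replicate 1, at -1.15 against -0.95. It was 0.723 for Adra2b in control replicate 5, at 0.03 against -0.26, and 0.629 for Adra1a in control replicate 3, at -3.01 against -3.37. For Adrb1 it was 0.669 by A_51_P203827 in OVX replicate 4, at -0.97 against -1.52, and 0.646 in OVX+CUMS replicate 6, at -2.04 against -1.56. By A_52_P322181 it was 0.657 in OVX+CUMS replicate 5, at 1.57 against 1.88.

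The OVX effect differed between tissues for the 4 probes detected in both, by the limma test of the difference (blood less mPFC). Of all 17544 probes tested, 39.3% were called in the same way. The fit had no slide term, and the Adra2b difference holds the slide step of mPFC. The differences were 1.33 for Adra2b, -1.01 for Adra1b A_55_P2177721, 0.66 for Adra1b A_55_P2100290 and -0.65 for Adrb1 A_51_P203827. With the spike-in shift the Adrb1 difference was -0.17 (adjusted p = 0.540 from limma), and with normexp background correction that of Adra1b A_55_P2100290 was 0.30 (adjusted p = 0.0815 from limma).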

How the results depend on the processing

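Counts here are of member probes called, and the cause of a change was not tested unless named. Most stand without the share of all probes called in the same fit, so their changes are not results about the members. With slide as a block, OVX was called for 0 probes in mPFC and 0 in blood, CUMS for 0 in mPFC, and in mPFC Adra2b turned to 0.11 for OVX and 0.015 for CUMS. In mPFC the CUMS count of 2 (Adra2b and Adrb1 A_52_P322181) includes the value that chose the family and is a description only. It became 1 with quantile normalization, with the percentile taken over detected probes, with the spike-in shift and with the replicate number as a block. It became 0 without the detection filter, with the looser filter and without moderation. It ran from 0 to 3 when 1 array was left out. The replicate block changed no other count of member calls, and the numbers do not pair the mice. The mPFC interaction count of 0 became 1 (Adra2b) without the CUMS arrays on slide 1, an alternative chosen after seeing the data, and ran from 0 to 1 leaving out 1 array. In blood the OVX count of 3 became 7 without the detection filter, through probes at or below background, and was 3 in every fit that left out 1 array. The blood CUMS count of 1 became 0 with the spike-in shift. It also became 0 without the CUMS arrays on slide 1 or the OVX arrays on slide 3, alternatives chosen after seeing the data. It became 2 with the looser filter and ran from 0 to 1 leaving out 1 array. No call is read from a probe that only the looser filter admitted. The blood interaction count of 0 became 1 (Adra1b A_55_P2100290) without the CUMS arrays on slide 1 and ran from 0 to 1. The rule for OVX+CUMS mice alone gave 1 in mPFC without the OVX arrays on slide 3 (Adrb1 A_52_P322181). It gave 1 there with normexp (Adra1d A_55_P2019954) and ran from 0 to 1 leaving out 1 array. In blood it gave 1 without the filter and 1 with the looser one, Adrb3 A_55_P2105685 in both. That probe passed the looser filter mainly through the groups other than control, and control and OVX+CUMS mice shared no slide. No call is read from it in either fit. The count of tissue level differences, 3, became 5 with the looser filter, and 4 with normexp and with quantile normalization, where Adra2b was called in opposite directions. Of all probes, 95.7%, 96.4% and 95.6% were called in these fits, in that order. The level difference turned to -0.53 for Adrb1, -1.06 for Adra1b A_55_P2100290 and -0.16 for Adra1b A_55_P2177721 with the spike-in shift, and to 0.39 for Adra2b with normexp, against -0.58 with quantile normalization. The count for the tissue difference of the CUMS effect, 1, became 0 with the spike-in shift, where 0 of all 17544 probes were called. It became 2 with the looser filter, where 37.3% of all probes were called, and ran from 1 to 2 leaving out 1 array. The probe added by the looser filter was Adrb3 A_55_P2105685, from which no call is read. Signal over background limits the blood results, since 8 of 12 member probes were not detected there.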
